A study of Mus musculus with 20 samples.

Results

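The responses of vasoactive intestinal peptide (VIP) knockout mouse lung to 4 weeks of hypoxia were measured by RNA-seq of whole lung. The comparison took the 5 libraries titled VIPKO hypoxia (10% O2, 4 weeks) and the 4 titled VIPKO normoxia (21% O2, 4 weeks), which are 9 of the 20 libraries of the series. The other 11 libraries, 6 from wild-type (WT) normoxia and 5 from WT hypoxia, came from C57BL/6 mice and entered the estimate of spread and the test of whether a response differed between genotypes. The titles and the design text call the mutant animals knockouts, while the genotype field calls the same samples VIP knockdowns. By their labels both VIPKO groups carry the Vip mutation and differ in oxygen. Single libraries also differed in Vip signal, thymus transcripts and Xist class, as given below, so the contrast is not one of oxygen alone. The labels give no strain background for the mutants, no age or sex, no targeting strategy and no statement that each library was a separate animal; p-values therefore measure the spread between these libraries, which may in part be technical.

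VIP is a neuropeptide that relaxes vascular and airway smooth muscle through G protein-coupled receptors that raise cyclic AMP, and the series title describes mice without it as having spontaneous pulmonary arterial hypertension. Chronic alveolar hypoxia constricts and remodels the small pulmonary arteries. Cells sense low oxygen through the hypoxia-inducible factors (HIF), which bind short RCGTG-type elements and raise genes for glucose uptake, angiogenesis and metabolic restraint, while capillary, arterial, mural and immune cells of the lung each change their own programmes.

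Vip itself (GRCm38 chr10:5639218-5647617, plus strand) was barely detected in 8 of the 9 libraries. Its normalized signal was 5.32, 5.54, 4.27 and 1.16 in VIPKO normoxia 1 to 4, and 2.17, 4.70, 1.08, 105.9 and 1.20 in VIPKO hypoxia 1 to 5. In the WT libraries it was 93.0 in normoxia 5 and 0 to 12.74 in the other 10, so a low Vip value did not separate the genotypes in whole lung. The library labelled VIPKO hypoxia 4 stood far above the rest, which goes against its label, although a transcript can persist after a deletion and the labels do not say which part of the gene was removed. Between the oxygen groups Vip differed by 18.9 with that library (two-sided exact permutation p = 0.929) and by -1.79 without it (exact permutation p = 0.286). None of the 3 tested genes of the VIP and PACAP list was called (log2 fold changes from -0.17 to 0.20). Of the receptors, Vipr2, a VIP and PACAP receptor, was not called (log2 fold change 0.20 ± 0.23 SE, adjusted p = 0.748) and neither was Adcyap1r1, the PACAP receptor (-0.13 ± 0.23, adjusted p = 0.848). These and later adjusted p-values come from limma's moderated test of log2(signal + 1) with Benjamini-Hochberg adjustment over 21658 genes; a gene was called when its adjusted p was under 0.05, and a positive value means higher in hypoxia.

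Several libraries stood apart before any comparison. VIPKO hypoxia 3 carried thymus transcripts, with Rag1, a recombinase of developing lymphocytes, at 11135.7 against at most 11.02 in the other 19 libraries, and Prss16, a thymic epithelial protease, at 2582.7 against at most 9.59. The summed signal of the mitochondrial ribosomal RNAs mt-Rnr1 and mt-Rnr2 was 15357.5, 12034.3, 27207.7 and 20937.0 in the normoxia libraries and 4856.2, 8759.7, 4506.3, 9415.2 and 5851.5 in the hypoxia libraries. It was thus 2.83-fold higher in normoxia (18884 ± 6655 against 6678 ± 2266, SD, n = 4 and 5) without overlap, with an exact permutation p of 0.00794, the smallest that 5 against 4 libraries allow. In limma neither gene was called on its own (mt-Rnr1 -1.45 ± 0.64, adjusted p = 0.342; mt-Rnr2 -1.50 ± 0.79, adjusted p = 0.429). Xist was high in VIPKO hypoxia 1, 2 and 3 and in normoxia 3 (19163.1 to 37036.0), and Y-linked genes were expressed in the other 5 libraries. On the first principal component of the 9 libraries (41.7% of the variance), hypoxia 2 (61.6), normoxia 2 (63.4) and normoxia 3 (74.8) lay at one end, normoxia 4 at 23.5 and the other 5 between -23.5 and -83.1. The lung markers Sftpc, Scgb1a1 and Cdh5 were abundant in each of the 9 libraries, and estimated depths ran from 16.4 to 56.4 M reads.

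**Figure D1:**
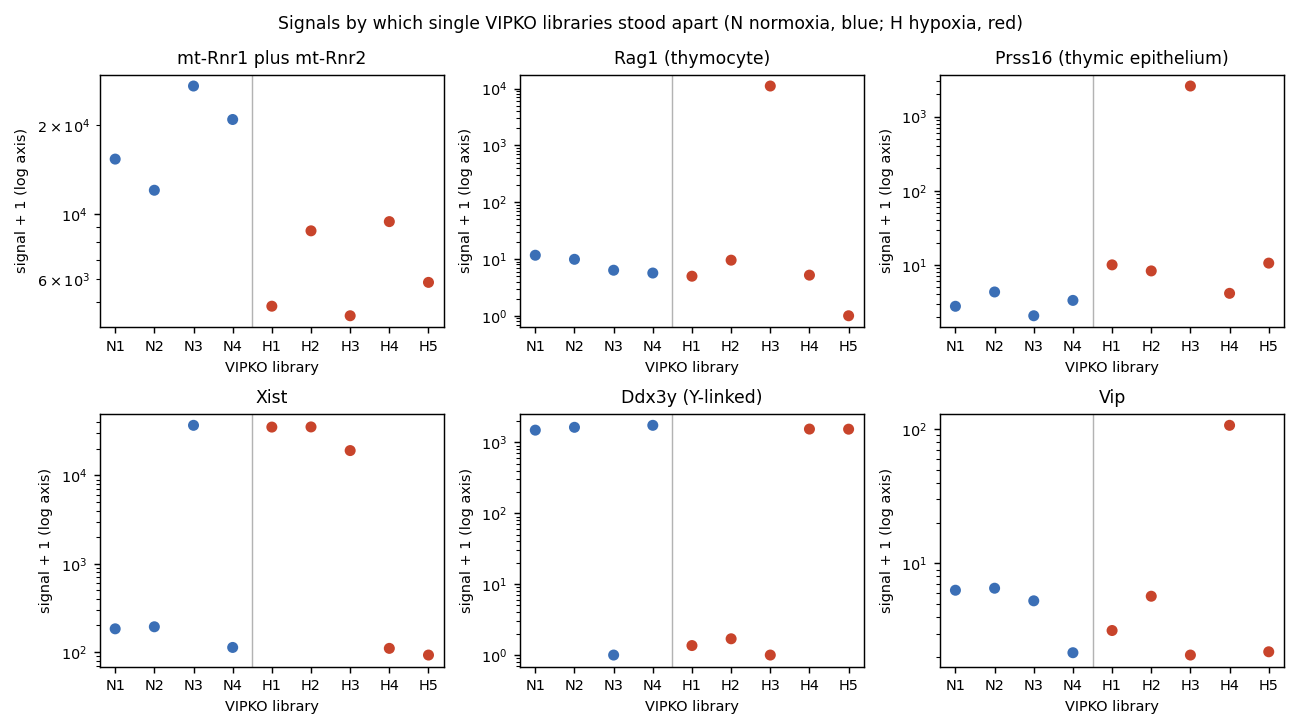
Normalized signal plus 1 on a log axis for 6 measures in the 4 VIPKO normoxia (N, blue) and 5 VIPKO hypoxia (H, red) libraries, 1 point per library. Rag1 and Prss16 stand out in H3, Vip stands out in H4 (105.9), and the mitochondrial ribosomal RNA points of the hypoxia libraries all lie below those of the normoxia libraries.

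Between the hypoxia and normoxia libraries of VIPKO lung 216 of 21658 genes were called, 133 upward and 83 downward, or 0.997% of genes tested (0.614% rose and 0.383% fell). At an unadjusted p under 0.05 there were 2806 genes. Of the 216, 104 changed over 2-fold, and in 203 the 5 hypoxia and 4 normoxia values did not overlap, which held for 1112 genes in all (5.13%). The median log2 fold change over all genes was -0.01. Leaving out VIPKO hypoxia 3 gave 185 calls, of which 153 were shared; leaving out hypoxia 2, normoxia 2 and normoxia 3 together gave 45, of which 38 were shared; and taking the Xist class or the mitochondrial ribosomal RNA as a covariate gave 226 and 176, with 182 and 138 shared. The count moved over 1.5-fold without VIPKO normoxia 3 (88), hypoxia 1 (113), the library labelled VIPKO hypoxia 4 (118) or hypoxia 2 (392).

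Among the genes that rose, a known hypoxia target, Ddit4, and the glucose transporter gene Slc2a1 carry HIF core letters in their promoter windows, and Cyp1a1, the monooxygenase gene with the largest fall on the AhR list, carries the core shared with the aryl hydrocarbon receptor (AhR) element. These 3 windows are shown because HIF and AhR both bind DNA together with ARNT at such cores, a textbook route from oxygen to transcription; no binding was measured. Each RefSeq window (GRCm38.p6) runs from 250 bases before to 50 bases after the start, 5′ to 3′ on the gene's strand, and capitals mark ACGTG or GCGTG on either strand (CACGT or CACGC where the match is on the opposite strand). The windows are chr10:59951721-59952020 on the minus strand for Ddit4, chr4:119108495-119108794 on the plus strand for Slc2a1 and chr9:57697363-57697662 on the plus strand for Cyp1a1.
Ddit4: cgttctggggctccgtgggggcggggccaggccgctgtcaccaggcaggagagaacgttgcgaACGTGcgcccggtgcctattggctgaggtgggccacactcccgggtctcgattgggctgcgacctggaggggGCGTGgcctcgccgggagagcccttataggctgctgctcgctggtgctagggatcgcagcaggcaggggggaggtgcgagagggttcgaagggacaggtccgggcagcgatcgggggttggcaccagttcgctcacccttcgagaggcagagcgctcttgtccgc
Slc2a1: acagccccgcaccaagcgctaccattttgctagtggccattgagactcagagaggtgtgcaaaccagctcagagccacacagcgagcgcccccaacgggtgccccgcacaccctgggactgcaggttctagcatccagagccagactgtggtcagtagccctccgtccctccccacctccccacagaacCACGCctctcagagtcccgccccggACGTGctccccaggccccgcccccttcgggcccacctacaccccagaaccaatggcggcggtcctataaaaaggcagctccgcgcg
Cyp1a1: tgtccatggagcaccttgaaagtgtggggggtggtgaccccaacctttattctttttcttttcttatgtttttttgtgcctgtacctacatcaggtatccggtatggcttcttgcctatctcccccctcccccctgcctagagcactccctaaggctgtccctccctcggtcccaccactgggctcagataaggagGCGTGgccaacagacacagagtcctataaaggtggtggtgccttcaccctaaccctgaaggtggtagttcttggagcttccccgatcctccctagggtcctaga

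The Ddit4 window held 2 matches, the Slc2a1 window 2 and the Cyp1a1 window 1. A match is common: 43.8% of the 32851 windows of this length in the table hold at least 1 of the letters (ACGTG 19.6%, GCGTG 32.4%). Of the 15 largest rises described below, 14 had a window and 6 of those held a match, and of the 15 largest falls 12 had a window and 5 held one. The letters were therefore about as frequent in either set as in promoters at large, and a match here describes a sequence, not a binding site.

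The largest rise was in Rgs5, a regulator of G protein signalling that marks pericytes (chr1:169655501-169695813). Its signal was 133.0, 111.9, 161.2 and 189.8 in normoxia and 931.9, 871.9, 831.8, 2963.7 and 751.7 in hypoxia. The hypoxia values all lay above the normoxia values, with the library labelled VIPKO hypoxia 4 far above the other 4, and the log2 fold change was 2.88 ± 0.35 (adjusted p = 0.000119). Ntrk2, the receptor for brain-derived neurotrophic factor (chr13:58806569-59133970), rose from 1513.3, 1498.6, 629.9 and 1108.4 to 5122.3, 8469.6, 6282.1, 9706.8 and 7639.1. That is a 6.27-fold ratio of means (log2 2.69 ± 0.29, adjusted p = 3.45e-05). The groups did not overlap, and it was the one called gene among 8 tested neurotrophin ligands and receptors, 7 of which were positive (median 0.22). Over all genes tested 0.997% were called.

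Ptx3, a pentraxin made by endothelial and myeloid cells in innate defence, went from 12.41, 12.19, 11.74 and 10.48 to 53.46, 59.02, 81.99, 95.40 and 70.73 (log2 2.50 ± 0.36, adjusted p = 0.000758). Slc26a10, a member of an anion exchanger family, went from 165.7, 120.0, 104.3 and 114.0 to 596.5, 1234.2, 611.4, 585.9 and 601.4 (log2 2.47 ± 0.28, adjusted p = 5.25e-05). Neither gene's groups overlapped, and hypoxia 2 lay well above the other hypoxia libraries for Slc26a10. Ramp3, which pairs with the calcitonin receptor-like receptor to make an adrenomedullin receptor, rose from 45.21, 49.87, 33.09 and 53.56 to 187.1, 144.5, 142.4, 137.3 and 172.6 (log2 1.78 ± 0.22, adjusted p = 0.000154). The tyrosine phosphatase gene Ptprr (2.27 ± 0.37), the syntaphilin gene Snph (1.86 ± 0.31), Fam181b (1.67 ± 0.28), the Mediator-associated kinase gene Cdk19 (1.55 ± 0.19) and the scavenger receptor gene Stab2 (1.53 ± 0.26) also rose, with adjusted p-values from 0.000154 to 0.00457 and calls kept without any 1 library. Lrrc3b (2.01 ± 0.44, adjusted p = 0.028) and Mfsd2a, a lysophospholipid transporter gene (1.70 ± 0.35, adjusted p = 0.0189), rose too. The Lrrc3b call was lost without the library labelled VIPKO hypoxia 4, hypoxia 5, normoxia 3 or normoxia 4, and the Mfsd2a call without hypoxia 1, the library labelled VIPKO hypoxia 4, normoxia 1 or normoxia 4 (adjusted p up to 0.136 and 0.058).

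The largest fall was in Ankrd63, an ankyrin repeat gene (chr2:118699103-118703963). It went from 288.1, 212.8, 204.9 and 252.6 in normoxia to 34.67, 15.50, 19.42, 29.35 and 25.18 in hypoxia, a 9.65-fold fall in the mean (log2 -3.26 ± 0.25, adjusted p = 4.38e-07). The groups stood wide apart, and it also fell in WT lung (log2 -2.27 ± 0.23, adjusted p = 4.64e-05). Cyp1a1, the AhR-induced monooxygenase (chr9:57687928-57703824), went from 155.1, 99.73, 219.9 and 95.47 to 28.90, 26.81, 21.58, 8.39 and 13.19 (log2 -2.83 ± 0.52, adjusted p = 0.00777). It was the one called gene of 7 on the AhR list (0.997% of all genes tested were called), 6 of which were negative (median -0.25), so the fall was not shared in size by the others.

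Slc5a12, a lactate transporter gene, went from 70.04, 50.97, 131.3 and 95.47 to 31.78, 35.87, 14.02, 3.15 and 11.99 (log2 -2.39 ± 0.50, adjusted p = 0.0208), and its call was lost without normoxia 3 or normoxia 4 (adjusted p up to 0.108). Adgre4, an adhesion receptor gene of myeloid cells, went from 194.2, 205.0, 287.1 and 259.6 to 66.46, 80.44, 52.86, 84.92 and 67.13 (log2 -1.74 ± 0.26, adjusted p = 0.00136). Its groups were clearly separate, while in WT lung its value was -0.16 ± 0.24 (adjusted p = 0.663) and the difference between genotypes did not pass (-1.57, adjusted p = 0.0666). Further falls were in the T-type calcium channel gene Cacna1i (-1.51 ± 0.31, adjusted p = 0.0185), Lmntd1 (-1.42 ± 0.26, adjusted p = 0.00669), the interferon-inducible Ifi214 (-1.29 ± 0.29, adjusted p = 0.0308) and Trim9, a ubiquitin ligase gene (-1.33 ± 0.31, adjusted p = 0.039). The call was lost without the library labelled VIPKO hypoxia 4 or normoxia 3 for Cacna1i, without any one of 5 libraries for Ifi214 (hypoxia 1, the library labelled VIPKO hypoxia 4, hypoxia 5, normoxia 1 and normoxia 3) and without any one of the 7 libraries other than hypoxia 2 and hypoxia 3 for Trim9, with adjusted p-values up to 0.105, 0.163 and 0.132. Ifi214 belongs to a family of near-identical genes among which the counting could have split reads.

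**Figure D2:**
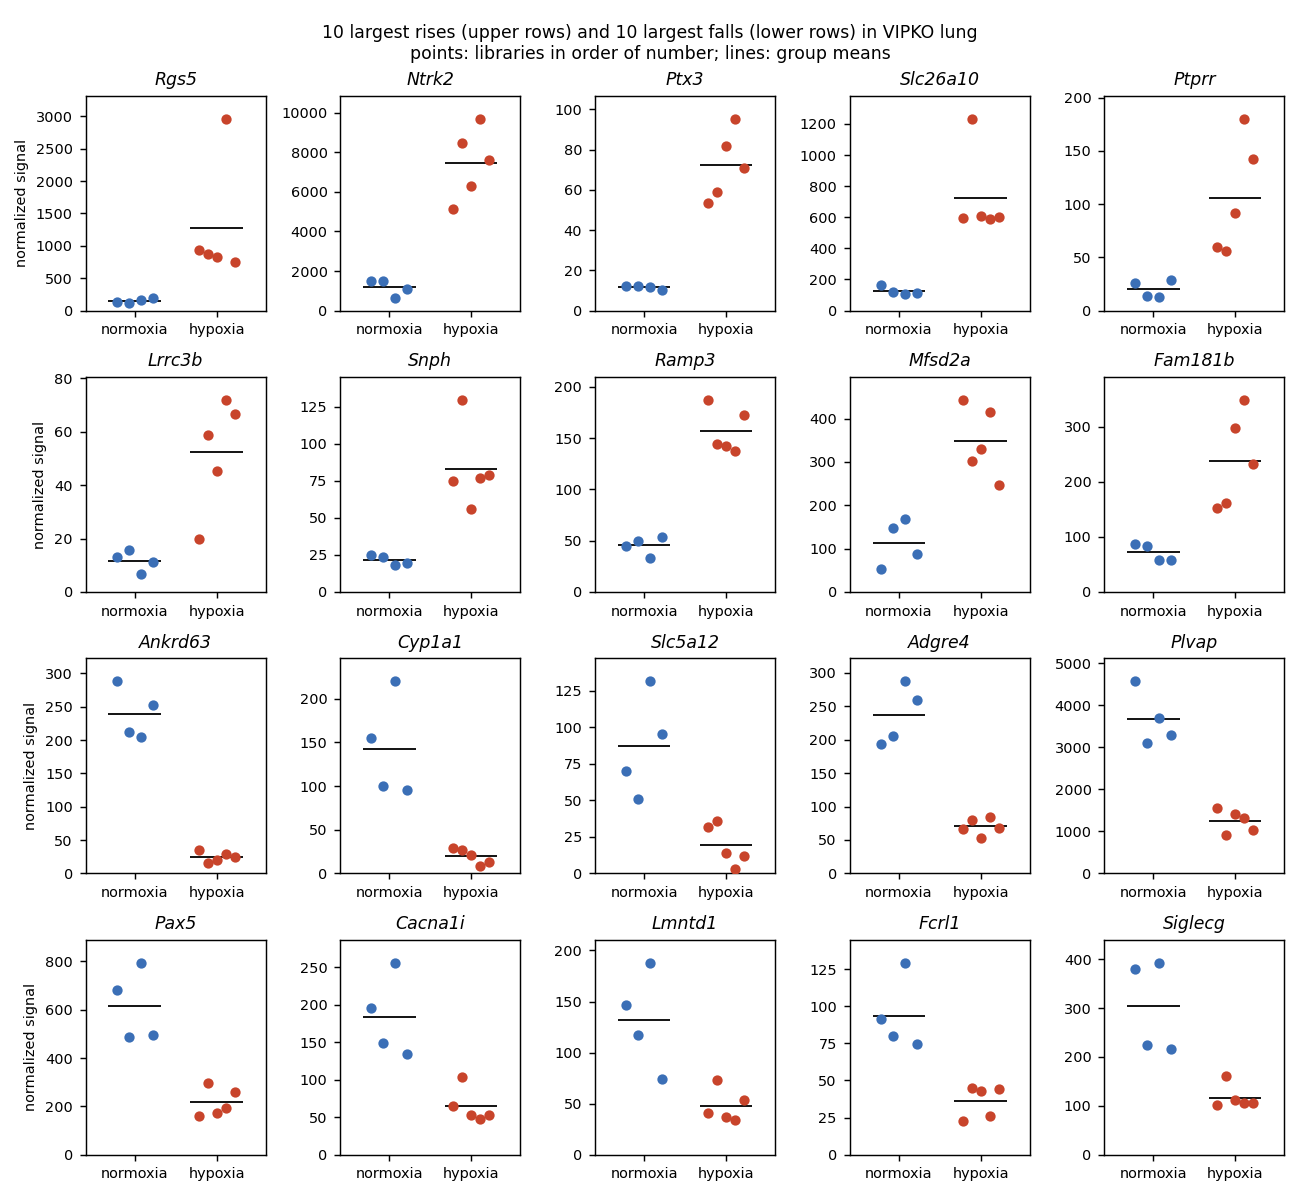
Normalized signal by library for the 10 largest rises (upper 2 rows) and the 10 largest falls (lower 2 rows) in VIPKO lung, with normoxia in blue, hypoxia in red and a line at each group mean; points run in order of library number. In each panel the groups do not overlap, a condition for being named, with Ankrd63 separated most (204.9 to 288.1 against 15.50 to 34.67).

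Of 23 tested HIF-induced genes, 3 rose, none fell and 17 were positive (0.614% of all genes tested rose), with a median of 0.27 against -0.01 over all genes. Ddit4, an inhibitor of mTORC1, went from 391.9, 380.1, 330.9 and 324.8 to 685.5, 865.0, 1648.5, 683.5 and 1746.7 (log2 1.53 ± 0.29, adjusted p = 0.00944). Ndrg1, a stress-induced gene, went from 789.0, 715.9, 565.7 and 810.3 to 1229.1, 1215.3, 1014.1, 1181.5 and 1176.0 (log2 0.70 ± 0.13, adjusted p = 0.0108). Slc2a1, the GLUT1 gene, went from 350.2, 444.4, 430.2 and 376.1 to 714.1, 507.9, 744.4, 701.3 and 436.4 (log2 0.61 ± 0.14, adjusted p = 0.0369). The Ddit4 and Ndrg1 groups were separate, whereas hypoxia 5 overlapped normoxia for Slc2a1. The Ndrg1 call was lost without normoxia 3 (adjusted p = 0.0694), and the Slc2a1 call without VIPKO hypoxia 3 (adjusted p = 0.082), hypoxia 1, the library labelled VIPKO hypoxia 4, or normoxia 1, 3 or 4 (up to 0.112). None of 11 HIF subunit and oxygen sensor genes was called, Epas1 (HIF-2α) standing at -0.17 ± 0.13 (adjusted p = 0.578). None of 20 glycolysis genes was called, although 17 were positive (median 0.27), with Pkm at 0.46 ± 0.17 (adjusted p = 0.234) and Aldoa at 0.43 ± 0.20 (adjusted p = 0.365); the latter name stands on more than 1 line of the table, and the most abundant line was used. At an unadjusted p under 0.05 there were 10 of the 23 HIF-induced and 8 of the 20 glycolysis genes, against 2806 of all 21658.

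Endothelial genes changed in a mixed way. In whole tissue, fewer cells of a type and less RNA per cell cannot be told apart. Of 18 capillary genes 4 fell and none rose (median -0.18), against 0.383% of genes tested that fell. Plvap, which forms the diaphragms of endothelial fenestrae and caveolae (chr8:71497765-71511752), went from 4564.8, 3100.6, 3703.3 and 3284.4 to 1551.3, 914.9, 1401.4, 1327.2 and 1034.6 (log2 -1.57 ± 0.19, adjusted p = 0.000142). Ednrb, the endothelin B receptor that clears endothelin and releases nitric oxide, went from 2032.0, 1733.9, 2058.1 and 2346.0 to 966.2, 911.1, 593.4, 1038.9 and 1215.6 (log2 -1.14 ± 0.16, adjusted p = 0.000624). Hpgd, the enzyme that inactivates prostaglandins, fell by 0.95 ± 0.14 on the log2 scale (adjusted p = 0.00105), and Fibin by 0.87 ± 0.14 (adjusted p = 0.00334). These 4 fell in WT lung as well (log2 -1.52, -0.72, -0.56 and -0.75, adjusted p-values 0.000182, 0.00554, 0.0106 and 0.00246), and their calls held without any 1 of the 9 libraries. Of 17 pan-endothelial genes none was called and 12 were positive (median 0.17), with 5 at an unadjusted p under 0.05. Vwf, the von Willebrand factor gene, stood at 0.49 ± 0.14 (adjusted p = 0.127). The summed signal of the pan-endothelial list ran from 84058.7 to 96060.9 in normoxia and from 88927.9 to 109267.5 in hypoxia.

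Of 16 arterial and Notch genes 3 rose and 1 fell (median 0.17), against 0.614% and 0.383% of all genes tested. Cxcl12, the chemokine that recruits CXCR4-bearing cells, went from 6910.5, 6580.7, 4736.3 and 6154.4 to 12932.8, 14369.9, 13999.2, 19965.3 and 17301.2 (log2 1.36 ± 0.18, adjusted p = 0.000222). The Notch ligand gene Jag2 rose by 0.83 ± 0.16 (adjusted p = 0.00944), while the Notch ligand gene Dll4 fell by 0.82 ± 0.19 (adjusted p = 0.0367). Hey2, a Notch target, went from 75.36, 42.11, 72.58 and 61.71 to 160.4, 137.2, 61.49, 193.9 and 133.1 (log2 1.05 ± 0.25, adjusted p = 0.0487), with hypoxia 3 inside the normoxia range. The Dll4 call was lost without VIPKO hypoxia 3 (adjusted p = 0.0831), the library labelled VIPKO hypoxia 4, hypoxia 5, or normoxia 1, 3 or 4 (up to 0.119), and the Hey2 call without any one of the 7 libraries other than hypoxia 3 and normoxia 1 (up to 0.185).

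Lymphatic genes split into 4 that rose and 6 that were not called, out of 10 tested (median 0.37; 0.614% of genes tested rose). Ccl21a, a chemokine gene of lymphatic endothelium that attracts CCR7-bearing cells, went from 1147.6, 896.7, 872.6 and 1244.5 to 2752.1, 2464.0, 3691.9, 3748.1 and 3465.8 (log2 1.63 ± 0.20, adjusted p = 0.000129). It has near-identical copies in the mouse genome, so its reads are uncertain. Prox1, the transcription factor that specifies lymphatic endothelium (chr1:190118035-190170714), went from 201.2, 169.5, 171.8 and 185.1 to 562.7, 474.3, 307.5, 604.9 and 657.0 (log2 1.47 ± 0.25, adjusted p = 0.00374). Reln, the reelin gene, rose by 1.50 ± 0.22 (adjusted p = 0.000905) and Mmrn1, the multimerin gene, by 1.35 ± 0.23 (adjusted p = 0.00374). In these 4 genes the groups did not overlap, which held for 5.13% of all genes tested. VIPKO hypoxia 3 was the lowest hypoxia library for Prox1, Reln and Mmrn1, and the calls held without any 1 library. Ccl21a, Prox1, Reln and Mmrn1 rose in WT lung as well (log2 1.281, 1.181, 1.085 and 1.199, adjusted p-values 0.000832, 0.00414, 0.00331 and 0.0024). The list median in WT lung was 0.57. Vegfc, the growth factor that drives lymphatic sprouting (chr8:54077606-54187096), went from 256.2, 232.7, 181.5 and 238.7 to 588.4, 563.8, 594.4, 808.3 and 692.9 (log2 1.51 ± 0.15, adjusted p = 3.29e-05). It was the one called gene of 15 VEGF and angiopoietin genes, 12 of which were positive (median 0.18). In WT lung Vegfc was not called (0.25 ± 0.14, adjusted p = 0.21), and a link between Vegfc and the lymphatic genes was not tested.

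**Figure D3:**
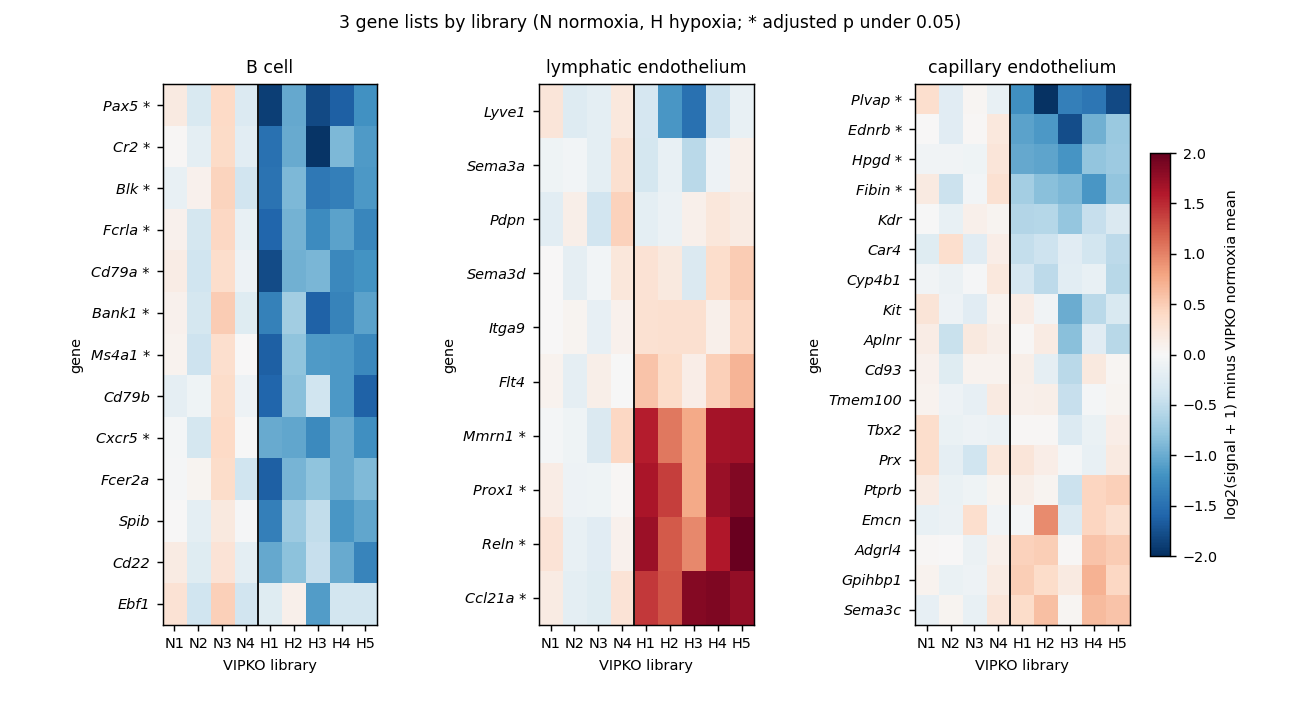
Heat maps of log2(signal + 1) minus the VIPKO normoxia mean for the B cell, lymphatic and capillary gene lists, with 1 column per library (N normoxia, H hypoxia), genes ordered by log2 fold change, called genes starred and colours ending at -2 and 2. B cell genes are lower in the hypoxia columns, with 8 of the 13 drawn called, whereas 4 lymphatic genes are higher and 4 capillary genes lower while the other members of those 2 lists were not called.

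Genes of vascular tone gave at most 2 calls per list, where 0.997% of all genes tested were called. Nos3, the endothelial nitric oxide synthase gene, went from 454.9, 427.3, 358.0 and 416.3 to 923.0, 914.8, 576.8, 711.5 and 725.3 (log2 0.88 ± 0.14, adjusted p = 0.00334) and was 1 of 13 nitric oxide and natriuretic peptide genes called. Agt, the angiotensinogen gene, was low throughout, at 7.09, 5.54, 10.67 and 6.99 in normoxia and 45.15, 25.77, 20.50, 18.87 and 35.96 in hypoxia (log2 1.78 ± 0.38, adjusted p = 0.0264). The call for Agt was lost without hypoxia 1, hypoxia 5, normoxia 2 or normoxia 4 (adjusted p up to 0.0896). It and Ednrb, which fell, were the calls among 9 endothelin and angiotensin genes, and Hpgd was the one among 13 prostaglandin and thromboxane genes. Trpv4, a mechanosensitive calcium channel gene, went from 197.7, 202.8, 175.0 and 242.2 to 400.9, 433.4, 346.3, 335.5 and 402.8 (log2 0.91 ± 0.11, adjusted p = 0.000129). Kcnn3, a calcium-activated potassium channel gene, rose by 0.64 ± 0.15 (adjusted p = 0.0358), and its call was lost without VIPKO hypoxia 3 (adjusted p = 0.0703), hypoxia 1, the library labelled VIPKO hypoxia 4, hypoxia 5, normoxia 1 or normoxia 3 (up to 0.175). They were 1 of 13 calcium entry genes and 1 of 17 potassium channel genes.

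Among growth factor genes the BMP family moved both ways. Of 24 tested BMP genes 1 rose and 1 fell (median 0.05), against 0.614% and 0.383% of all genes tested. Bmp2, a ligand, went from 144.5, 111.9, 86.46 and 132.7 to 233.7, 250.8, 246.0, 254.7 and 258.9 (log2 1.08 ± 0.18, adjusted p = 0.00374). Bmp6, another ligand, went from 2878.2, 2322.8, 2820.4 and 2388.2 to 1915.5, 1545.3, 1422.6, 1499.1 and 1676.0 (log2 -0.69 ± 0.13, adjusted p = 0.0114), a call lost without normoxia 3 (adjusted p = 0.0625). Bmp2 hypoxia values lay within a narrow band above the normoxia range. Fst, the follistatin gene, whose product binds and blocks activins (chr13:114452290-114458951), went from 73.58, 86.44, 55.50 and 71.02 to 170.8, 126.1, 151.0, 176.1 and 227.8 (log2 1.23 ± 0.19, adjusted p = 0.00136). It was the one call of 20 TGF-beta and activin genes (median 0.02). Aqp1, a water channel gene of lung microvessels, rose by 0.67 ± 0.12 (adjusted p = 0.00509) and was 1 of 15 genes linked to heritable pulmonary arterial hypertension.

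Mural and matrix genes rose in part, where 0.614% of all genes tested rose. Of 13 pericyte genes 2 rose and 11 were positive (median 0.45): Rgs5, given above, and the laminin chain gene Lamc3 (1.01 ± 0.21, adjusted p = 0.0201), whose call was lost without hypoxia 1, the library labelled VIPKO hypoxia 4, hypoxia 5, normoxia 3 or normoxia 4 (adjusted p up to 0.104). None of 16 smooth muscle contractile genes was called (median 0.18; 1 at an unadjusted p under 0.05). Of 23 matrix glycoprotein and crosslinking genes 2 rose (median 0.20). Lox, the lysyl oxidase gene that crosslinks collagen and elastin, went from 934.4, 1100.8, 1098.3 and 1063.0 to 3370.4, 2743.6, 2268.8, 2597.8 and 2207.0 (log2 1.31 ± 0.19, adjusted p = 0.000758), without overlap. Fbln2, the fibulin-2 gene, rose by 1.17 ± 0.21 (adjusted p = 0.0069). None of 19 collagen genes was called (median 0.02; 3 at an unadjusted p under 0.05), with Col4a1 at 0.39 ± 0.16 (adjusted p = 0.299) and Col4a2 at 0.38 ± 0.12 (adjusted p = 0.177).

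The B cell list held the most called genes of the 63 lists. Of 14 tested, 9 fell, against 0.383% of all genes tested. The other 5 were negative without a call, and the median was -1.21. The medians over the list in WT lung and without VIPKO hypoxia 3 were -0.95 and -1.17. Pax5, the transcription factor that holds B cell identity (chr4:44524757-44710487), went from 680.4, 486.7, 793.9 and 495.1 to 162.3, 295.4, 171.6, 192.5 and 260.2 (log2 -1.51 ± 0.26, adjusted p = 0.00457). Ms4a1, the CD20 gene, went from 446.8, 321.4, 539.0 and 428.5 to 136.2, 244.3, 194.2, 191.8 and 173.8 (log2 -1.20 ± 0.23, adjusted p = 0.00944). Cr2, complement receptor 2, fell by 1.30 ± 0.25 (adjusted p = 0.0111), the kinase gene Blk by 1.26 ± 0.24 (adjusted p = 0.00944), the adaptor gene Bank1 by 1.22 ± 0.24 (adjusted p = 0.0121) and Fcrla by 1.23 ± 0.25 (adjusted p = 0.0189). In these 6 genes the groups did not overlap, which held for 5.13% of all genes tested and for 203 of the 216 called genes. Normoxia 3 was the highest library for each, and the calls of Ms4a1, Cr2, Blk, Bank1 and Fcrla were lost without it, with adjusted p-values from 0.0609 to 0.107 (that of Fcrla also without hypoxia 1). More B cell genes were among the 15 largest falls, namely the receptor genes Fcrl1 (-1.37 ± 0.29, adjusted p = 0.0257) and Siglecg (-1.33 ± 0.29, adjusted p = 0.0258) and the transcription factor gene Pou2f2 (-1.27 ± 0.24, adjusted p = 0.0111). The Pou2f2 call was lost without normoxia 3 (adjusted p = 0.0626), and those of Fcrl1 and Siglecg without 3 and 5 of the 9 libraries (adjusted p up to 0.135 and 0.131), each time including normoxia 3 and hypoxia 1.

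The summed B cell signal was 4678.1 to 7517.0 in normoxia and 2444.5 to 3573.9 in hypoxia. At an unadjusted p under 0.05 there were 13 of 14 B cell genes and 13 of 14 NK and cytotoxic genes. NK and cytotoxic genes were negative in 14 of 14 with 2 calls (median -1.22), where 0.383% of all genes tested fell. The calls were the activating receptor gene Klrk1 (-1.24 ± 0.24, adjusted p = 0.0118) and the chemokine gene Ccl5 (-1.21 ± 0.26, adjusted p = 0.0281). The Klrk1 call was lost without normoxia 3 (adjusted p = 0.0752), and that of Ccl5 without the library labelled VIPKO hypoxia 4, hypoxia 5, normoxia 3 or normoxia 4 (up to 0.141). Of 7 plasma cell genes 1 fell, Prdm1 (-0.88 ± 0.21, adjusted p = 0.0484), which was called in no fit that left out 1 library other than hypoxia 2 (adjusted p = 0.104 without VIPKO hypoxia 3, and up to 0.15). None of 16 T cell genes was called (median -0.03, and -0.60 without VIPKO hypoxia 3; 3 at an unadjusted p under 0.05). Tcf7, a T cell transcription factor gene, was 563.5 to 668.5 in normoxia and 476.4, 504.3, 3944.3, 440.3 and 477.1 in hypoxia, so the thymus-bearing library set its mean. Cx3cl1, the fractalkine gene, fell by 0.77 ± 0.16 (adjusted p = 0.0208), the one call of 19 chemokine and cytokine genes, and its call was lost without hypoxia 1, normoxia 3 or normoxia 4 (adjusted p up to 0.0772). The 12 tested neutrophil genes were all positive with none called (median 1.40; 8 at an unadjusted p under 0.05), and their summed signal ran from 2742.8 to 11579.2 in normoxia and from 4531.6 to 26611.5 in hypoxia. Lcn2, one of them, was 943.3, 5860.2, 1143.2 and 1515.9 in normoxia and 4487.9, 2046.3, 6017.7, 3494.1 and 2758.5 in hypoxia, with normoxia 2 inside the hypoxia range. The summed signal of the 12 tested erythroid genes, a measure of blood, ran from 12380.7 to 65455.1 in normoxia and from 39955.6 to 102950.8 in hypoxia (median log2 fold change 1.10, none called and 0 at an unadjusted p under 0.05), and its part in the immune results was not tested. With the Xist class or the mitochondrial ribosomal RNA as a covariate, 11 and 6 B cell genes fell.

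**Figure D4:**
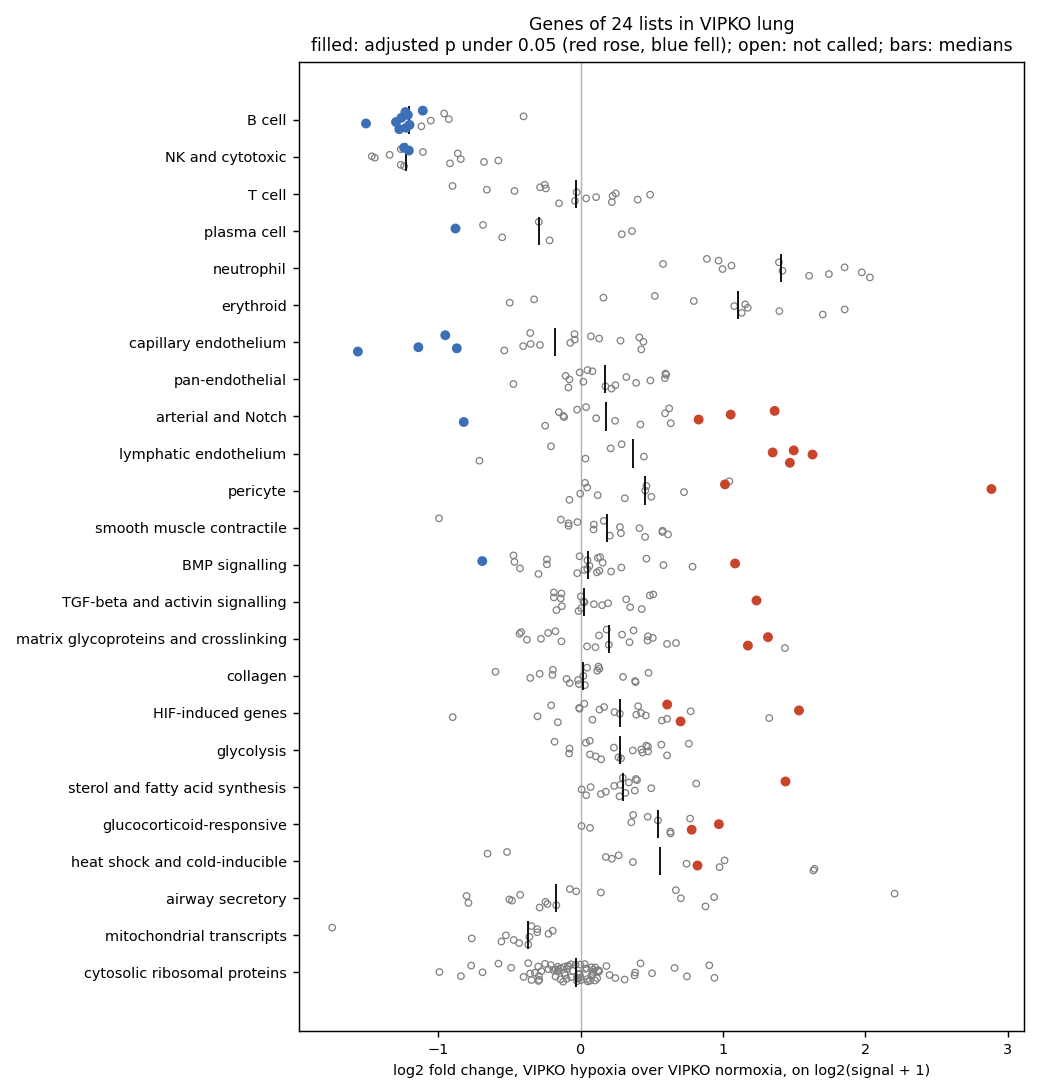
Log2 fold change of each tested gene in 24 of the 63 lists, VIPKO hypoxia over VIPKO normoxia; filled points passed an adjusted p of 0.05 (red rose, blue fell), open points did not, and bars are list medians. The B cell list (median -1.21) and the NK list (-1.22) lie left of 0. The medians of the neutrophil list (1.40) and the erythroid list (1.10) lie right without a call. The other medians run from -0.37 (mitochondrial transcripts) to 0.55 (heat shock and cold-inducible).

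Stress and metabolic genes added a few calls. Of 11 glucocorticoid-responsive genes, 2 rose and none was negative (median 0.54): Cdkn1a, the p21 gene (0.97 ± 0.19, adjusted p = 0.0161), and the kinase gene Sgk1 (0.78 ± 0.16, adjusted p = 0.0235). The Cdkn1a call was lost without hypoxia 1 or the library labelled VIPKO hypoxia 4, and that of Sgk1 without those or normoxia 1, 3 or 4 (adjusted p up to 0.0529 and 0.102). Dnajb1, a co-chaperone gene (0.82 ± 0.19, adjusted p = 0.037), was the call among 12 heat shock and cold-inducible genes, a call lost without any one of the 7 libraries other than hypoxia 2 and hypoxia 3 (adjusted p up to 0.112). Of those 12 genes 10 were positive and 2 negative (median 0.55), with 8 at an unadjusted p under 0.05. None of 15 immediate early genes was called (median 0.41; 5 at an unadjusted p under 0.05), with Dusp1, a phosphatase gene of that list, at 1.34 ± 0.35 (adjusted p = 0.0811). Scd1, the stearoyl-CoA desaturase gene, went from 15287.4, 27303.6, 45274.6 and 21632.2 to 79824.8, 69182.9, 61193.1, 95391.5 and 46662.4 (log2 1.44 ± 0.28, adjusted p = 0.0121). It was the one call of 17 sterol and fatty acid genes, 17 of which were positive (median 0.30). Fmo1, a flavin monooxygenase gene, fell by 0.75 ± 0.17 (adjusted p = 0.039), the one call of 16 xenobiotic genes, and the call was lost without VIPKO hypoxia 3 (adjusted p = 0.0572), hypoxia 1 or any of the 4 normoxia libraries (up to 0.121). In all, 49 of 888 tested list genes were called (against 0.997% of all genes tested), in 26 of the 63 lists, and 37 lists held no call.

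The calls of the 66 named genes also depended on the fit. With the Xist class as a covariate 4 were lost, those of Slc2a1, Hey2, Fmo1 and Trim9 (adjusted p from 0.0533 to 0.0601). With the mitochondrial ribosomal RNA as a covariate 13 were lost, those of Agt, Ccl5, Dll4, Fmo1, Hey2, Ifi214, Lamc3, Lrrc3b, Prdm1, Serpina3n, Sgk1, Slc2a1 and Slc5a12 (0.051 to 0.119). That covariate did not overlap between the VIPKO oxygen groups, so its part and that of oxygen cannot be fully told apart in this fit. Correcting for GC content and length ended those of Dnajb1, Ifi214, Klrk1, Lamc3, Serpina3n and Trim9 (0.0674 to 0.12). In the fit on the 9 VIPKO libraries 18 were lost, those of Agt, Cx3cl1, Dll4, Fcrl1, Fmo1, Hey2, Ifi214, Jag2, Kcnn3, Lmntd1, Lrrc3b, Prdm1, Scd1, Serpina3n, Sgk1, Slc2a1, Slc5a12 and Trim9 (0.0538 to 0.217). Without hypoxia 2, normoxia 2 and normoxia 3 together 47 were lost (0.0579 to 0.485), and the 19 kept were Ankrd63, Ccl21a, Cdk19, Cxcl12, Ednrb, Fibin, Fst, Hpgd, Lox, Mfsd2a, Ntrk2, Plvap, Ptx3, Ramp3, Rgs5, Scd1, Slc26a10, Trpv4 and Vegfc.

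Responses in VIPKO and WT lung were then compared by the interaction of genotype and oxygen. Of the 216 genes called in VIPKO lung, 175 had the same sign in WT lung, against 13519 of the 21658 genes tested (62.4%), and 23 were also called for the difference. Over all genes the difference was called for 61 (0.282%), 29 with a more positive response in VIPKO (0.134%) and 32 with a more negative one (0.148%).

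Among the named genes whose difference was called, Fst had the largest positive one. It was 102.1, 104.7, 97.30, 91.61, 94.80 and 97.58 in WT normoxia and 49.08, 93.06, 77.47, 77.74 and 78.81 in WT hypoxia, a WT log2 fold change of -0.41 ± 0.17, so that the difference was 1.63 ± 0.25 (adjusted p = 0.0163). Fst rose in VIPKO lung and in WT lung did not pass (adjusted p = 0.102). Vegfc stood at 0.25 ± 0.14 in WT (adjusted p = 0.21), a difference of 1.26 ± 0.21 (adjusted p = 0.0179), and Lox at 0.08 ± 0.17 (adjusted p = 0.77), a difference of 1.23 ± 0.25 (adjusted p = 0.0397). Serpina3n, an acute-phase serpin gene of a family of close copies, rose in VIPKO lung by 0.94 ± 0.21 (adjusted p = 0.0359; up to 0.174 without 1 of 6 libraries) and was -0.49 ± 0.19 in WT, a difference of 1.43 ± 0.29 (adjusted p = 0.0384). The endothelial lipase gene Lipg stood at 0.03 ± 0.16 in VIPKO lung (adjusted p = 0.964) and fell in WT (adjusted p = 0.00117), a difference of 1.03 ± 0.22 (adjusted p = 0.0498). Rtl8a, a retrotransposon-derived gene with a near-identical neighbour, differed by 1.00 ± 0.21 (adjusted p = 0.0425).

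On the other side, 32 genes had a called difference that was more negative in VIPKO lung. The 6 largest by the naming rule, and Trim9, are given here. Of these, Bpifa1 and Lypd2 are on the airway secretory list, in which the difference was negative for 17 of 17 tested genes and called for those 2 (median -2.24; 0.148% of all genes tested had a called negative difference). Bpifa1, a secreted airway defence protein (chr2:154142880-154149219), was 540.8, 739.1, 5008.0 and 3000.3 in VIPKO normoxia and 582.6, 1532.7, 1161.9, 946.7 and 621.0 in VIPKO hypoxia. In WT it was 56.31, 12.74, 11.74, 28.93, 1007.5 and 3.15 in normoxia and 785.2, 1827.3, 4373.1, 7844.4 and 1088.5 in hypoxia. The VIPKO groups overlapped and no change was called there (-0.79 ± 1.09, adjusted p = 0.792), whereas WT rose (6.08 ± 0.98, adjusted p = 0.00184), a difference of -6.87 ± 1.46 (adjusted p = 0.048). Cyp2a5, a cytochrome P450 gene with close paralogues (chr7:26835305-26843548), was 881.2, 866.6, 896.4 and 2331.9 in VIPKO normoxia and 307.7, 357.3, 883.5, 449.7 and 308.1 in VIPKO hypoxia (-1.41 ± 0.47, adjusted p = 0.182). It rose in WT from a mean of 237.0 in normoxia to 1417.6 in hypoxia (2.87 ± 0.42, adjusted p = 0.00117), beside a mean of 1244.0 in VIPKO normoxia. The difference was -4.28 ± 0.63 (adjusted p = 0.0117). Sult1d1, a sulfotransferase gene (-3.18 ± 0.59, adjusted p = 0.0293), Serpina9 (-2.94 ± 0.60, adjusted p = 0.0397), Adh7, an alcohol dehydrogenase gene (-2.31 ± 0.49, adjusted p = 0.0438), and Lypd2 (-2.24 ± 0.45, adjusted p = 0.0384) followed, none of them called within VIPKO lung. Mean signals in WT normoxia, WT hypoxia and VIPKO normoxia were 63.03, 257.5 and 251.9 for Sult1d1 and 16.6, 77.72 and 73.49 for Serpina9. They were 86.84, 333.4 and 203.6 for Adh7 and 119.0, 300.9 and 280.5 for Lypd2. These VIPKO normoxia means lay above the WT normoxia means, a contrast that was not tested. Trim9 differed by -2.08 ± 0.42 (adjusted p = 0.0384). Of 17 airway secretory genes none was called in VIPKO lung (median -0.17; 2 at an unadjusted p under 0.05), with a median of 2.16 in WT, and the abundant Scgb1a1 (-0.29 ± 0.24, adjusted p = 0.627) and Cyp2f2 (-0.23 ± 0.20, adjusted p = 0.64) did not pass. The summed signal of that list ran from 283267.1 to 494445.8 in VIPKO normoxia and from 240747.7 to 377925.9 in VIPKO hypoxia, and its part in the differences was not tested.

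The difference calls of Fst and Cyp2a5 held without any 1 of the 20 libraries, and that of Vegfc without any but VIPKO normoxia 4 (adjusted p = 0.0567). The calls of the other 10 genes were lost without at least 11 of the 20 libraries taken 1 at a time, with adjusted p-values up to 0.144. With the mitochondrial ribosomal RNA signal as a covariate 0 genes passed in limma (2118 genes at an unadjusted p under 0.05); its levels were 97.67 to 7057.9 in the WT libraries and 4506.3 to 27207.7 in the VIPKO libraries, and its part in the differences was not tested otherwise.

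**Figure D5:**
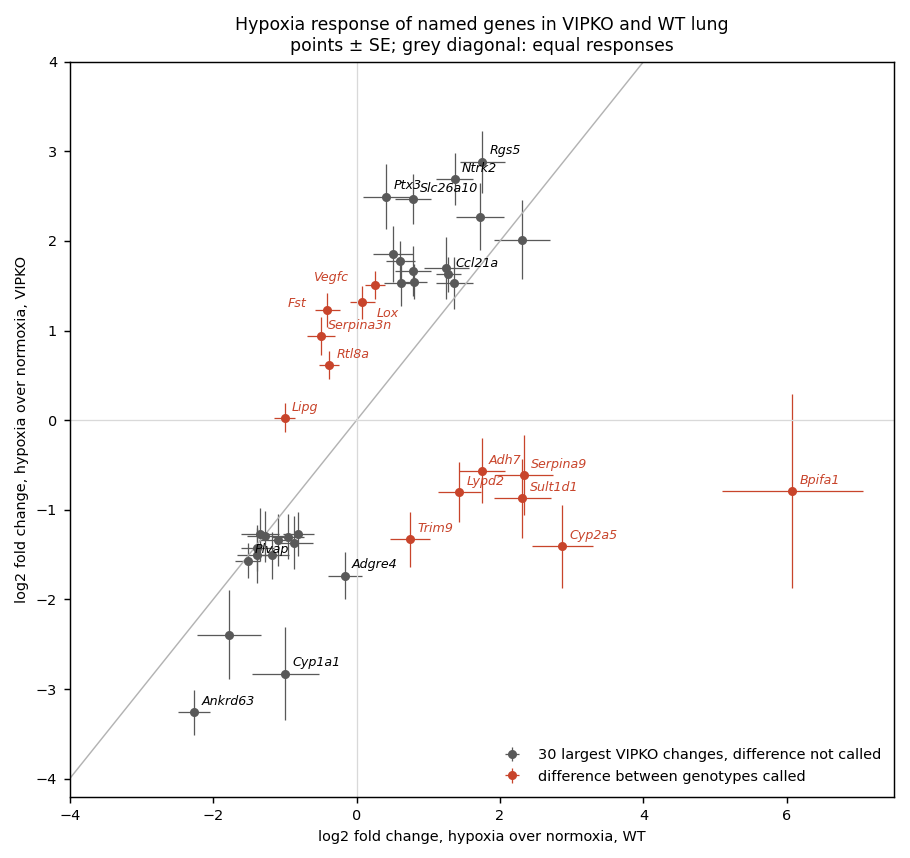
Log2 fold change (hypoxia over normoxia) in VIPKO lung against that in WT lung with SE bars, for the 30 largest VIPKO changes and the 12 largest differences; red marks genes whose difference was called, and the grey line marks equal responses. Vegfc and Lox lie above the line near 0 in WT, and Fst (-0.41 in WT) and Serpina3n (-0.49) above it at negative WT values. The genes with negative differences lie below it, led by Bpifa1 (6.08 in WT, -0.79 in VIPKO) far to the right. Trim9 is the nearest of them to 0 in WT (0.75 in WT, -1.33 in VIPKO).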

How the data were processed

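Whole lung RNA of mouse libraries was sequenced; per the labels' protocols, libraries were made with a directional kit (NEBNext Ultra II). The authors deposited 1 table of normalized gene counts for 20 libraries, treated here as a normalized signal; Partek and mm10 are named per the submitters' processing notes, and for the aligner, the counting and the normalization the entry is "not given in the sources used here". Of 30746 lines, 55 carried no gene name and were left out. A count model was not used, because low values were whole multiples of 1 read (tolerance 0.05 reads) for 82.1 to 89.1% of values in 19 libraries and for 41.5% in VIPKO hypoxia 2; estimated depths rest on those steps, and that of VIPKO hypoxia 2 is uncertain.

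Genes with a signal of at least 10 in at least 4 libraries (21658) were fitted as log2(signal + 1) with limma 3.58.1 in R 4.3.3, with 4 group means over the 20 libraries, a variance trend and Benjamini-Hochberg adjustment. A fold change on this scale understates the change of low genes. All libraries carry the same batch label, so no batch could be tested. Named genes were the 15 largest rises and falls among called genes whose groups were separate and whose higher group averaged 50 or more (predicted genes, receptor segments and sex-linked genes left out), up to 6 called genes or 2 abundant ones per list, and the 6 largest differences each way. Trim9, and single library markers, are named beside these. The 63 lists, their members and these rules were chosen with earlier results of these data known, so their counts are descriptions. Of 929 listed genes 888 were tested. Another 37 tested lines repeat a name; all were fitted, and values by name use the line with the highest mean. The fitting code was tested on simulated data. Alternatives were other pseudocounts (0.5, 5), filters, scalings, variance models, covariates, a replicate block, and fits without 1 or more libraries. Single values were compared by two-sided exact permutation tests over libraries. Promoter sequences are RefSeq windows on GRCm38.p6, and gene positions are GENCODE on GRCm38, the assembly that mm10 names. A gene that the naming rule selects is not reported here.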

Additional observations from a re-analysis of the deposited data

Results flagged for a closer look

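In 214 groups of 4 to 6 libraries, 20 held 1 library far from its group by Dixon's criterion, and chance alone flags about 1 in 20 such groups. VIPKO hypoxia 3 was apart for Rag1 (11135.7, next 8.53), Prss16 (2582.7, next 9.59), Tcf7 (3944.3, next 504.3), Cyp2a5 (883.5, next 449.7), Fmo1 (1658.1 below 2781.6) and Ndrg1 (1014.1 below 1176.0). The library labelled VIPKO hypoxia 4 was apart for Vip (105.9, next 4.70) and Rgs5 (2963.7, next 931.9), and VIPKO hypoxia 2 for Slc26a10 (1234.2, next 611.4) and Siglecg (160.7, next 111.1). Among normoxia libraries, VIPKO normoxia 4 was apart for Cyp2a5 (2331.9, next 896.4), Cyp2f2 (44926.4, next 29968.4), Hpgd (5814.4, next 4679.8) and Prdm1 (549.5, next 424.7). VIPKO normoxia 2 was apart for Lcn2 (5860.2, next 1515.9), VIPKO normoxia 3 for Vipr2 (501.0, next 249.1) and VIPKO normoxia 1 for Serpina9 (25.71 below 83.11). Of the WT libraries examined for the difference genes, WT normoxia 5 was apart for Bpifa1 (1007.5, next 56.31), Cyp2a5 (608.4, next 262.5) and Vegfc (346.2, next 244.9).

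For 13 named genes the hypoxia response differed between VIPKO and WT lung by limma's interaction test at an adjusted p under 0.05. The log2 difference was positive for Fst (1.63), Serpina3n (1.43), Vegfc (1.26), Lox (1.23), Lipg (1.03) and Rtl8a (1.00). It was negative for Bpifa1 (-6.87), Cyp2a5 (-4.28), Sult1d1 (-3.18), Serpina9 (-2.94), Adh7 (-2.31), Lypd2 (-2.24) and Trim9 (-2.08).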

How the results depend on the processing

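The count of 216 called genes was 717 with library weights, 134 in a fit on the 9 VIPKO libraries and 45 without VIPKO normoxia 2, normoxia 3 and hypoxia 2 (chosen after seeing the data); leaving out 1 VIPKO library gave 88 to 392. With the replicate block on the 9 VIPKO libraries the count was 19, and the other alternatives gave 157 to 229. Called list genes (49) numbered 104 with weights and 16 without those 3 libraries, and 27 to 59 without 1 library. Genes called for the difference (61) numbered 12 without a variance trend, 2228 with weights, 0 with the mitochondrial ribosomal RNA covariate (2118 at an unadjusted p under 0.05), 0 without those 3 libraries (1886), 292 without VIPKO hypoxia 3 and WT hypoxia 5 (added after seeing the data) and 4 to 541 without 1 library, the extremes being VIPKO normoxia 4 and WT hypoxia 4; without VIPKO hypoxia 3 there were 364. The log2 difference of mitochondrial ribosomal RNA ranged from -1.69 to -1.30 without 1 library. The causes were not tested. No called gene that is named changed sign. Uncalled values changed sign for Adcyap1r1 (-0.24 to 0.04 without 1 library, 0.01 without the 3 libraries), Lipg (-0.04 with quantile normalization, -0.01 with the replicate block, -0.03 with GC and length corrected, -0.08 with the Xist class, and -0.07 to 0.12 without 1 library), Tcf7 (-0.18 with weights, -0.37 to 0.43 without 1 library, and -0.37 without VIPKO hypoxia 3 and WT hypoxia 5), mt-Rnr2 (0.15 with the mitochondrial ribosomal RNA covariate) and Vip (-1.79 to 24.4 without 1 library). The mitochondrial ribosomal RNA covariate is the summed signal of mt-Rnr1 and mt-Rnr2, so mt-Rnr2 was there adjusted for itself. Its sign in that fit therefore says nothing about its stability. Replicate numbers are shared by the groups, but deviations of same-numbered libraries correlated at 0.15, 0.41, -0.29 and 0.22 for numbers 1 to 4, so the numbers were not taken to pair them. With the replicate block 19 genes and 10 list genes were called in the 9 VIPKO libraries, and 0 differences over 20 libraries (2670 at an unadjusted p under 0.05). Depth limits low genes such as Agt and Vip, where a signal of 1.04 to 3.60 corresponds to the 3 reads that a count of 0 allows in the VIPKO libraries.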
